A study of Rattus norvegicus with 8 samples.

Results

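The regions described here are long stretches of H2AK119ub1 in intact and injured rat sciatic nerve that overlapped between the nerves, in part or in full. ChIP-seq, in which chromatin fragments bound by an antibody are sequenced, was carried out on the distal stump of the nerve 1 day after transection (1 dpi) and on the contralateral nerve, which received a skin incision only (sham). The samples came from male Sprague Dawley rats labelled P28, which the protocol calls adult. Per the study's methods, 2 rats were used, and the chromatin was that of the whole nerve, so it comes from all cell types of the tissue, whose makeup could not be checked here. Of 8 libraries in 4 groups of 2 (ChIP and input of each condition), the data hold 2 lists of enriched regions, 1 per condition, each called by the authors on the combined ChIP libraries against the combined input. There are therefore no values per rat and no spread between replicates, and no test between sham and 1 dpi could be made. Intervals below cover counting error over regions only.

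Members were chosen by their measured width and position. A region of at least 500 bp (here called wide) was taken when it shared at least 1 bp with a wide region of the other list. This rule found 1452 of 82046 sham regions and 1404 of 99340 1 dpi regions, 2856 of 181386 in all. They formed 1521 overlapping pairs, which joined into 1335 paired groups, where a group is a set of wide regions of both lists linked by overlaps. Coordinates are on rn5 and counted from 1. Genes, promoters and base sequence at these positions were not analysed here.

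H2AK119ub1 is histone H2A carrying a single ubiquitin on a lysine of its C-terminal tail. It is placed by Polycomb repressive complex 1 (PRC1), through its RING-type E3 ligase subunits, and is removed by deubiquitinases such as BAP1. The mark is known for its place at silent developmental genes, where it often lies together with trimethylated H3K27, the mark of PRC2, and can extend over wide stretches of chromatin. In peripheral nerve, the study examined it because many genes that Schwann cells turn on after injury are held silent by Polycomb.

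Most wide regions of either nerve had no wide counterpart. Among the 5351 wide sham regions, 1452 had a wide 1 dpi partner (27.1%, Wilson 95% interval 26.0 to 28.3%), 1485 overlapped only narrower 1 dpi regions and 2414 overlapped none. Among the 4767 wide 1 dpi regions, 1404 had a wide sham partner (29.5%, 28.2 to 30.8%), 1669 overlapped only narrower sham regions and 1694 overlapped none. Since the rule used these overlaps, the counts are a description. For all regions of any width, 4.61% of sham regions overlapped a wide 1 dpi region and 3.34% of 1 dpi regions overlapped a wide sham region.

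The paired regions, selected for width and overlap, make up much of what the lists share by that choice, and the following shares are a description. They covered 1423 kb in sham and 1705 kb at 1 dpi, which was 7.57% and 7.82% of all covered bases. The bases they shared amounted to 1095 kb, or 30.9% of the 3542 kb shared by the complete lists. Thus 77.0% of the paired bases of sham nerve and 64.2% of those at 1 dpi were shared with a wide partner. Bases of members that met only narrower regions of the other list are not included. Per pair, a median of 51.4% of the bases covered by either region was shared. In 84 of the 1521 pairs (5.52%) less than 10% was shared, so a pair is not always the same stretch.

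The share of paired regions by width is also a description, since the rule used both width and overlap and a longer region meets another more easily. All 15 sham regions of at least 3000 bp were members, as were 66 of the 73 of at least 2000 bp (90.4%, 81.5 to 95.3%) and 496 of the 771 of at least 1000 bp (64.3%, 60.9 to 67.6%). At 1 dpi the corresponding counts were 44 of 48, 180 of 203 (88.7%, 83.6 to 92.3%) and 680 of 1079 (63.0%, 60.1 to 65.9%). The members also stood early in the lists. The first 5% of the list held 77.6% of sham members against 58.4% of the wide sham regions that overlapped nothing, and 97.9% of 1 dpi members against 56.4% of their unpartnered counterparts. The lists do not state their order, and position followed width closely among the pairs (Spearman rho -0.86 in sham and -0.91 at 1 dpi, across 1521 pairs that share lists and sometimes regions).

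At the limit of the rule, the choice of 500 bp separated regions that differed by a single base pair. A pair just inside it on chromosome 1 (chr1:185603555-185604939) was 500 bp wide in sham and 1385 bp at 1 dpi. On chromosome 5 (chr5:111789846-111790729) a sham region of 511 bp met a 1 dpi region of 500 bp. Just outside, an overlapping pair on chromosome 3 (chr3:155079767-155080536) had 499 bp in sham against 505 bp at 1 dpi, and one on chromosome 20 (chr20:7433684-7434889) had 933 against 499 bp. In 231 pairs the narrower region exceeded the limit by less than 50 bp, and in 243 overlapping pairs with 1 wide region it fell short by at most 50 bp.

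The paired regions were somewhat wider at 1 dpi. Across the 1521 pairs the median width was 840 bp in sham (quartiles 633 and 1219 bp, range 500 to 4753) and 1027 bp at 1 dpi (701 and 1580 bp, range 500 to 7320). The median log2 ratio of 1 dpi to sham was 0.21 (95% order-statistic interval 0.16 to 0.26), a ratio of 1.16. The 1 dpi region was the wider in 951 pairs (62.5%, 60.1 to 64.9%), the sham region in 568, and 2 pairs had equal width. Counting each group once by its covered width gave a median ratio of 1.12 (1.09 to 1.16), with 832 of 1335 groups wider at 1 dpi and 501 wider in sham. The 1 dpi list rested on 76420053 tags and the sham list on 19714687, 3.88 times fewer, so depth and injury cannot be told apart in these widths. The headers also differed in the approximate share of tags in regions (9.73% in sham, 5.33% at 1 dpi). The tag threshold was 10 in sham and 20 at 1 dpi, and 1 and 3 tags were allowed per bp. These differences cannot be told apart from injury either.

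The widths of the 1521 pairs had a Spearman rho of 0.26, and those of the 1181 one-to-one pairs a rho of 0.35. Both describe regions that the rule limits to 500 bp or more in each list. The 1 dpi region was more than 1.5 times as wide in 502 pairs (33.0%) and the sham region in 220 (14.5%), whereas 799 (52.5%) lay within 1.5-fold. Among all 17505 overlapping pairs of any width, the same differences were found in 28.9% and 23% respectively. Of these background pairs 46.1% were wider at 1 dpi, 37.0% were wider in sham and 16.9% were equal, with a median log2 ratio of 0. The rule sets the lower limit of width in both lists and used the width itself, so nothing is read from the contrast with this background.

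**Figure D1:**
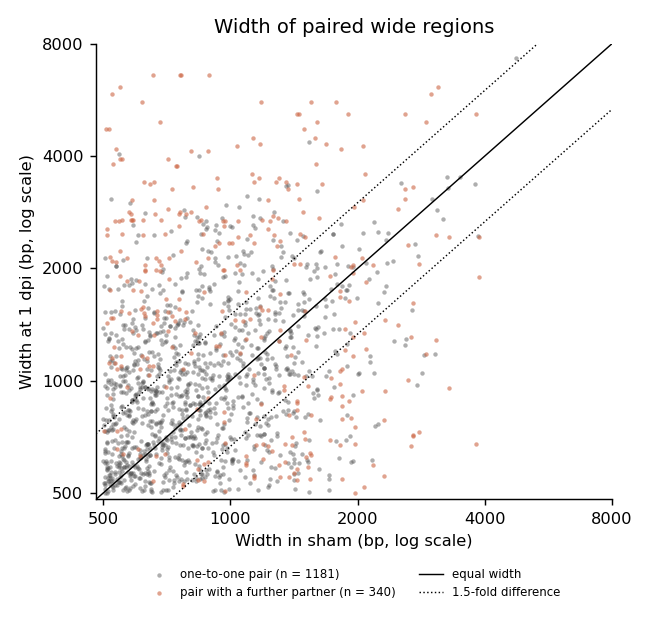
Width of each of the 1521 pairs in sham (x axis) and at 1 dpi (y axis), in bp on log scales, with grey points for the 1181 one-to-one pairs and orange points for the 340 pairs in which a region had a further partner. The points scatter widely about the solid line of equal width, 951 of them lie above it, and 799 fall within the dotted lines of a 1.5-fold difference.

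Sorting the pairs by one of the widths being compared, both of which start at 500 bp, largely fixes the direction of the difference within each part, so the following values only describe the spread. The 1181 pairs in which each region had exactly 1 wide partner were split by width into 4 parts of equal number. In the part with the narrowest sham regions (500 to 624 bp), 86.5% were wider at 1 dpi (82.1 to 89.9%), with medians of 556 bp in sham and 781.5 bp at 1 dpi. In the part with the widest sham regions (1127 to 4753 bp), 33.6% were wider at 1 dpi (28.4 to 39.1%), with medians of 1415 and 1229 bp. Sorted by 1 dpi width, the order turned round, and the share wider at 1 dpi rose from 28.4% in the narrowest part to 87.8% in the widest. Over all 1181 pairs, without sorting, the share was 61.3% (58.5 to 64.0%).

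Individual pairs reached much larger differences. The highest ratio of 1 dpi to sham width among the one-to-one pairs was on chromosome 8 (chr8:63365875-63369926). There a sham region of 544 bp lay within a 1 dpi region of 4052 bp, 7.45 times as wide. A sham region of 521 bp on chromosome 20 (chr20:48983417-48986493) lay within 3077 bp at 1 dpi, a ratio of 5.91. On chromosome 17 (chr17:74100834-74103830) a width of 577 bp in sham stood against 2989 bp at 1 dpi. In this last pair the upper edges were 8 bp apart, and the 1 dpi region reached 2420 bp further out at the lower end only. On chromosome 4 (chr4:428486-432486) the sham region measured 841 bp and the 1 dpi region 4001 bp.

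The opposite cases were smaller in extent. The one-to-one pair with the lowest ratio was on chromosome 2 (chr2:251307413-251309580), where 2168 bp in sham enclosed 614 bp at 1 dpi, 3.53 times less. On chromosome 4 (chr4:143567057-143569064) a sham region of 1709 bp was paired with 510 bp at 1 dpi that reached 299 bp beyond it. A sham region of 1956 bp on chromosome 9 (chr9:71120123-71122078) enclosed 610 bp at 1 dpi, and one of 1929 bp on chromosome 3 (chr3:177019080-177021008) enclosed 605 bp. The highest ratio of sham to 1 dpi in this comparison, 3.53, was thus below the 4 highest ratios of 1 dpi to sham, which were 4.76 or more.

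The edges of paired regions were compared next, as the distance between their lower and between their upper ends. Over all pairs the median distance between matching edges was 270.5 bp (252 to 288 bp, 3042 edges), and it was 196 bp for the one-to-one pairs (181 to 213 bp, 2362 edges). Of the one-to-one edges, 20.5% lay within 50 bp of each other, 44.0% within 150 bp, which is the size of the calling window, and 20.4% were more than 500 bp apart. Both edges were within 150 bp in 264 pairs (22.4%), only one edge in 512 (43.4%) and neither in 405 (34.3%). Pairs with only one close edge were thus the most frequent kind among one-to-one pairs. Among all 1521 pairs those with neither edge close were more frequent (656, 43.1%) than those with one (601, 39.5%).

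The 1 dpi edge lay further out at 1407 of the 2362 one-to-one edges (59.6%, 57.6 to 61.5%), the sham edge at 950, and 5 edges were identical. The median reach of the 1 dpi region beyond the sham region was 40 bp at the lower end (27 to 50 bp) and 37 bp at the upper end (25 to 54 bp). The 1 dpi region extended past the sham region at both ends in 361 pairs (30.6%), and the sham region past the 1 dpi region in 133 (11.3%). In the others the regions were displaced, with nearly equal numbers shifted to lower coordinates (344) and to higher coordinates (338). The fragment length used to place tags was 150 bp in sham and 128 bp at 1 dpi per the file headers, and the part of this difference in the edge distances was not tested.

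**Figure D2:**
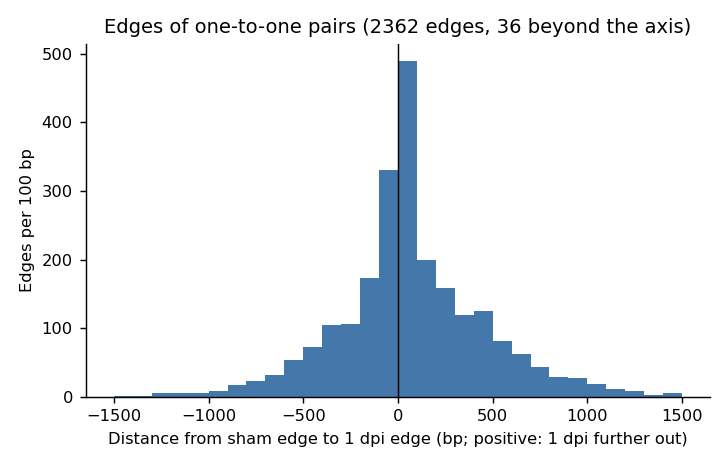
Distance in bp from each sham edge to the matching 1 dpi edge for the 1181 one-to-one pairs, as the number of edges per 100 bp, with positive values where the 1 dpi region reached further out. The 2362 edges peak at 0 and fall off on both sides, with more of them to the right (1407) than to the left (950), and 36 lie beyond the axis at 1500 bp.

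Some pairs coincided almost to the base pair. On chromosome 10 (chr10:107576853-107577378) both regions spanned 523 bp and were offset by 3 bp. On chromosome 19 (chr19:65865234-65865853) widths of 610 bp in sham and 620 bp at 1 dpi had edges 4 and 6 bp apart. The widest of these closely matched pairs was on chromosome 9 (chr9:96754339-96757624), with 3280 bp in sham and 3282 bp at 1 dpi and edges 6 and 4 bp apart.

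Where one region reached far beyond its partner, the extra stretch was searched for further regions of the other nerve. Of 319 one-to-one edges at which the 1 dpi region reached more than 500 bp further out, 179 (56.1%, 50.6 to 61.5%) had a further sham region below 500 bp within the extension, with a median width of 205 bp. Of 162 edges at which the sham region reached more than 500 bp further, 101 (62.3%, 54.7 to 69.4%) had a further 1 dpi region in it, with a median width of 248 bp. In a one-to-one pair such a region is below 500 bp by definition, and no share was computed for other stretches of the same length.

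The overlaps of each member with regions of any width in the other list were counted as well. Other than their wide partner, 183 of the 1452 sham members (12.6%, 11.0 to 14.4%) overlapped a 1 dpi region below 500 bp, and 276 of the 1404 1 dpi members (19.7%, 17.7 to 21.8%) overlapped such a sham region. Regions of the other list of any width covered a median of 88.2% of a sham member (quartiles 67.2 and 100%) and 72.8% of a 1 dpi member (54.9 and 91.1%). A sham member was covered completely in 482 cases (33.2%) and a 1 dpi member in 158 (11.3%). These shares are not given for other wide regions or for all regions, so nothing is read from them about the members. The median width of members was 821.5 bp in sham and 972.5 bp at 1 dpi. The part of width and depth in these values was not tested.

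Of the 1335 paired groups, 1181 (88.5%) consisted of 1 region from each list. In 87 groups several sham regions were bridged by a single 1 dpi region, in 48 a single sham region was overlapped by several 1 dpi regions, and in 19 both lists had several. Bridging by the 1 dpi region was the more frequent, and in these 87 groups the median covered width was 1721 bp in sham and 2339 bp at 1 dpi. A bridging region also covers the gaps between the regions it joins, so greater width there is partly built in. In the 48 reverse groups the medians were 1536.5 bp in sham and 1863 bp at 1 dpi, and 32 were wider at 1 dpi. The 1 dpi list rested on more tags, so depth and injury cannot be told apart here. The smallest gap between neighbouring regions was 219 bp in both lists.

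The groups with the greatest covered width mostly held several regions of a list. Covered width was summed over all regions of a group, which favours such groups. The widest, on chromosome 10 (chr10:71752481-71762418), spanned 9938 bp and was also the group with the most regions. Its 4 sham regions measured 1436, 1902, 2595 and 1450 bp, and its 3 1 dpi regions 541, 5206 and 3075 bp. In total 7383 bp were covered in sham and 8822 bp at 1 dpi, a ratio of 1.19.

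A group on chromosome 8 (chr8:67760818-67768137) was made of the widest region of each list. The sham region of 4753 bp lay wholly within the 1 dpi region of 7320 bp, which reached 1605 bp further at the lower end and 962 bp at the upper end. A second group on chromosome 8 (chr8:58695626-58702190) had 3 sham regions covering 5183 bp and 2 1 dpi regions covering 6110 bp. On chromosome 14 (chr14:3059032-3065806) both lists had 2 regions, which covered 5272 bp in sham and 5878 bp at 1 dpi. On chromosome 10 (chr10:18011005-18017119) a single 1 dpi region of 6115 bp bridged sham regions of 3106 and 546 bp. All 5 of these groups were wider at 1 dpi, by 1.11- to 1.67-fold.

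The first entry of each list was the same locus. It lay on chromosome 19 (chr19:67047774-67048992), with 1217 bp in sham and 768 bp at 1 dpi, and the upper edges were 2 bp apart. It had 0 further sham regions and 3 1 dpi regions within 5 kb. The next groups by the sum of listing positions were both on chromosome 13. In one (chr13:95724315-95727203), 2 sham regions covered 2460 bp and 2 1 dpi regions 2233 bp. In the other (chr13:95677736-95680828), 2842 bp in sham stood against 1046 bp at 1 dpi. All 3 of these were narrower at 1 dpi, as were 501 of the 1335 groups, and nothing is read from so few picked groups. No peak heights were used here, so how strongly these loci were enriched is not known.

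The surroundings of the paired groups held many regions of both nerves. They include members of other groups, which the rule selected, so the values were also computed without any member. Within 5 kb of a group, not counting regions that overlapped it, there were a mean of 4.06 sham regions (SD 2.59 across 1335 groups) and 4.85 1 dpi regions (SD 2.45), with a median of 9 in both lists together. For the 2414 wide sham regions that overlapped no 1 dpi region, the means were 1.58 and 2.09, and the median total was 3. For the 1694 wide 1 dpi regions that overlapped no sham region they were 2.35 and 3.76, and the median total was 6. Wide 1 dpi regions that overlapped only narrower sham regions came closest to the groups, with a median of 7. All regions of a list had a median total of 2 around sham and 3 around 1 dpi regions. With all members left out of the count, the medians were 8 around the groups (7 to 8), 3 and 5 around unpartnered wide sham and 1 dpi regions, and 7 around wide 1 dpi regions with a narrower partner. Paired groups with no region of either list within 5 kb were rare, at 29 of 1335 (2.17%, 1.52 to 3.10%), against 18.6% (17.1 to 20.2%) of unpartnered wide sham regions and 3.90% (3.07 to 4.93%) of unpartnered wide 1 dpi regions. Wide 1 dpi regions with a narrower sham partner were isolated as rarely, at 36 of 1669 (2.16%, 1.56 to 2.97%).

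The difference from unpartnered regions of sham nerve was seen in every width class, in counts that include members of other groups. Among sham regions of 500 to 699 bp, those with exactly 1 wide partner had a median of 8 neighbours (8 to 9, n = 436) and those that overlapped nothing had 2 (2 to 3, n = 1758). At 1000 bp or more the medians were 9 (9 to 10, n = 377) and 4 (3 to 6, n = 109). For 1 dpi regions the difference was smaller. It was 7 (7 to 8, n = 326) against 5 (5 to 6, n = 1266) at 500 to 699 bp, 8 (7 to 9, n = 315) against 7 (6 to 8, n = 340) at 700 to 999 bp, where the intervals overlapped, and 10 (9 to 10, n = 540) against 7 (6 to 8, n = 88) at 1000 bp or more. In this last class isolation was no rarer among members, at 2.41% (1.41 to 4.08%) against 1.14% (0.201 to 6.16%). Regions that lie close together are not independent, and these differences were not tested. Unpartnered regions were chosen for overlapping nothing, and the part of that choice in the differences was not tested either.

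Most neighbours of the paired groups were narrow, with means of 0.923 wide regions among 4.06 in sham and 1.22 among 4.85 at 1 dpi. At least 1 further wide sham region lay within 5 kb of 50.6% of the groups, and at least 1 further wide 1 dpi region within 5 kb of 59.1%. Members of other groups, which the rule selected, are among these wide neighbours, and these 2 shares were not computed without them. The shares were 39.3% and 46.2% around wide 1 dpi regions with a narrower partner, and between 11.7% and 14.5% around all regions of either list. The closest neighbour that did not overlap was at a median of 519 bp in sham and 423 bp at 1 dpi. Around unpartnered wide sham regions these distances were 2557 and 1868 bp, around unpartnered wide 1 dpi regions 1278 and 781 bp, and around wide 1 dpi regions with a narrower partner 746 and 554 bp. Around the groups, 1 dpi regions outnumbered sham regions in 717 cases (53.7%) and were fewer in 380 (28.5%). The corresponding shares were 50.4% and 20.7% around all 1 dpi regions, and the ratio of mean numbers was 1.195 around the groups against 1.36 around all sham and 1.52 around all 1 dpi regions.

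Coverage around the centre of the groups declined over several kb on each side in both lists. Between 2 and 5 kb from the centre, sham regions covered 14.9% of bases and 1 dpi regions 21.2%, to which the widest groups and neighbouring groups contribute. Between 10 and 20 kb the values were 5.73% and 8.18%. Around unpartnered wide sham regions the coverage between 2 and 5 kb was 4.38% in sham and 5.47% at 1 dpi, and around unpartnered wide 1 dpi regions it was 6.60% and 10.9%. No coverage was computed around wide regions with a narrower partner. Over the whole length of the chromosomes up to the last listed region, 0.648% of bases were covered in sham and 0.752% at 1 dpi.

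**Figure D3:**
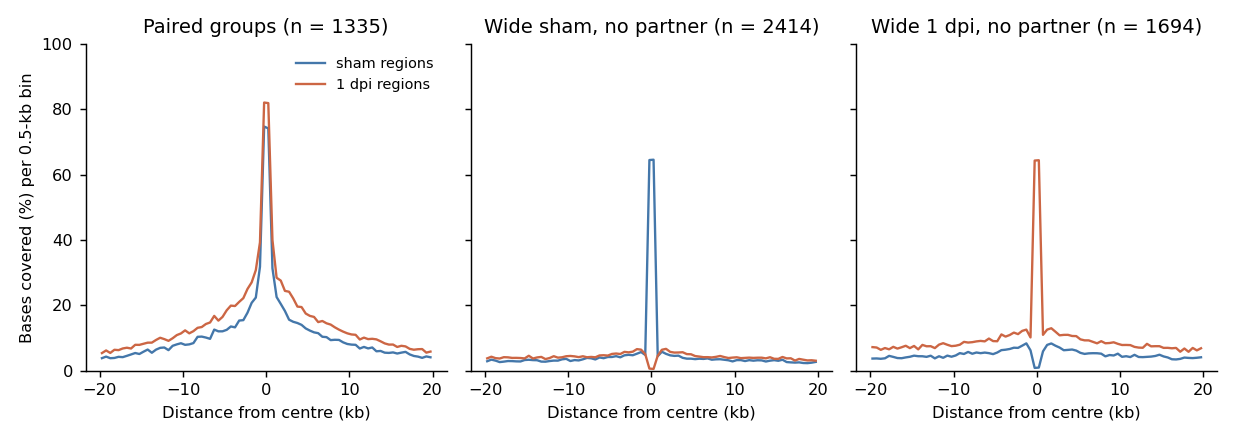
Share of bases (%) covered by sham regions (blue) and by 1 dpi regions (orange) in bins of 0.5 kb up to 20 kb from the centre of 1335 paired groups (left), 2414 wide sham regions that overlapped no 1 dpi region (middle) and 1694 wide 1 dpi regions that overlapped no sham region (right). Height at the centre follows from how the regions were chosen, and the flanks around paired groups (14.9% and 21.2% between 2 and 5 kb) include the ends of wide groups and members of nearby groups.

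Narrow regions near the paired groups were also more often shared between the nerves. Of narrow sham regions (below 500 bp) lying less than 1 kb from a group without touching it, 497 of 998 overlapped a 1 dpi region (49.8%, 46.7 to 52.9%). The share was 37.4% between 5 and 10 kb, 25.2% between 20 and 50 kb and 15.4% beyond 50 kb, against 18.3% for all 76695 narrow sham regions. Next to unpartnered wide sham regions (less than 1 kb) it was 30.9% (27.5 to 34.4%). Of narrow 1 dpi regions less than 1 kb from a group, 397 of 1145 overlapped a sham region (34.7%, 32.0 to 37.5%), which fell to 21.8% between 5 and 10 kb and to 13.0% beyond 50 kb, against 14.4% for all 94573. Beside unpartnered wide 1 dpi regions it was 21.0% (18.7 to 23.4%). Unpartnered regions were chosen for overlapping nothing. The surroundings of wide regions with a narrower partner, the class closest to the groups in neighbours, were not examined for this, so the trait may not be particular to the groups.

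The density of the other list fell over the same distances. The mean number of further 1 dpi regions within 5 kb of a narrow sham region was 5.44 in the bin closest to the groups and 1.42 beyond 50 kb, and for sham regions around narrow 1 dpi regions it was 4.56 and 1.199. The part of this density in the shared share was not tested.

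Many paired groups lay close to another. Another group was present within 5 kb of 520 of the 1335 groups (39.0%, 36.4 to 41.6%), and the median distance to the closest other group was 24.0 kb (14.5 to 35.4 kb). Of unpartnered wide regions, 7.0% in sham (6.05 to 8.09%) and 14.3% at 1 dpi (12.7 to 16.0%) had another of the same kind within 5 kb, with median distances of 134 and 59.4 kb. Wide regions with a narrower partner were not examined in this way. Another group lay within 1 kb of 21.7% of the groups, and whether such groups are parts of a single stretch broken in calling was not tested. Groups less than 5 kb apart formed 205 runs of 2 or more, of which 143 were of 2, 31 of 3, 20 of 4 and 11 of 5 or more groups.

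The longest run had 7 groups in 21.7 kb on chromosome 1 (chr1:271930168-271951892). Its paired regions covered 10.6 kb in sham and 12.5 kb at 1 dpi, and 6 of the 7 groups were wider at 1 dpi. The widest of these groups (chr1:271944678-271948220) had 3495 bp in sham against 3514 bp at 1 dpi, with edges 48 and 29 bp apart. The next run, also on chromosome 1 (chr1:272402746-272424361), had 6 groups in 21.6 kb that covered 10.5 kb in sham and 13.7 kb at 1 dpi, and all 6 were wider at 1 dpi. A run of 5 groups on chromosome 12 (chr12:19159357-19180716) covered 7.09 kb in sham and 13.97 kb at 1 dpi, and all 5 were wider at 1 dpi. A shorter run on chromosome 3 (chr3:27855895-27876510) had 6 groups in 20.6 kb, of which only 4 were wider at 1 dpi, with 10.3 kb covered in sham and 14.9 kb at 1 dpi.

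The highest number of neighbours within 5 kb was 20, reached by 3 of the named groups. One was in the run on chromosome 12, with 12 sham and 8 1 dpi regions. In that group (chr12:19168559-19174158) a 1 dpi region of 5600 bp bridged sham regions of 1783 and 1183 bp. The others with 20 neighbours were on chromosome 14 (chr14:80164803-80167198), with 786 bp in sham and 2340 bp at 1 dpi and 11 sham and 9 1 dpi neighbours, and on chromosome 6 (chr6:105367046-105369326), with 2242 bp in sham and 763 bp at 1 dpi and 10 neighbours in each list.

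**Figure D4:**
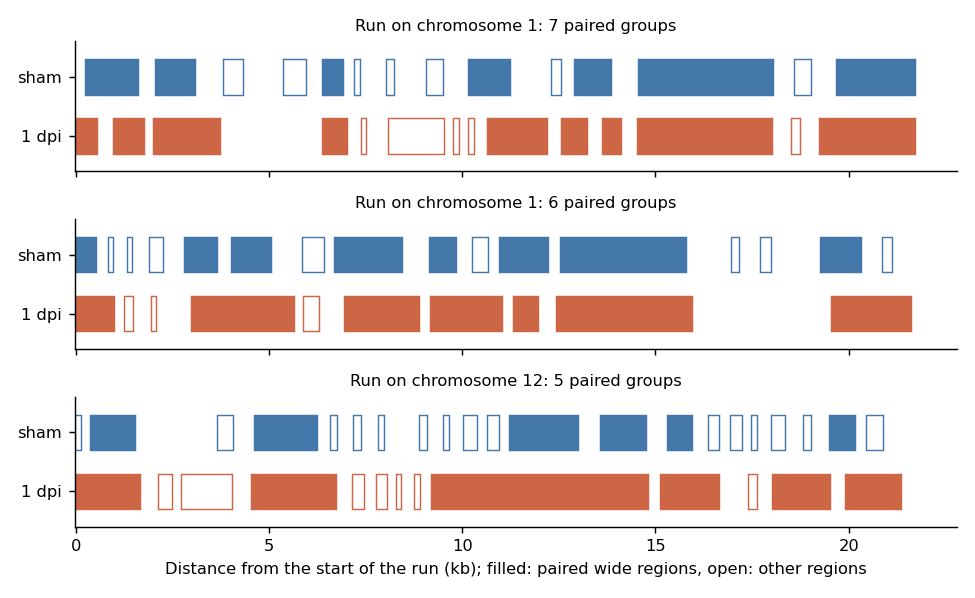
Regions of sham (blue) and 1 dpi (orange) in the 3 longest runs of paired groups, drawn to scale against the distance in kb from the start of the run, with filled bars for paired wide regions and open bars for other regions. In the run on chromosome 12 a single 1 dpi bar of 5600 bp spans filled and open sham bars, and on chromosome 1 the widest filled bars (3495 and 3514 bp in the first run) nearly coincide.

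Paired groups were found on all 21 chromosomes listed. Chromosome 1 had the most, with 164, and chromosome 10 was the densest, with 133 groups or 11.9 per 10 Mb. Chromosome X was the sparsest per length, with 15 groups or 0.972 per 10 Mb, but it had only 409 sham and 475 1 dpi regions in all. Relative to these its members were the most frequent, at 44.0 per 1000 sham and 33.7 per 1000 1 dpi regions, followed by chromosome 10 in sham (25.01) and chromosome 14 at 1 dpi (20.7). The share of wide sham regions that were paired ranged on the autosomes from 16.4% (11.1 to 23.6%) on chromosome 18 to 31.8% (26.9 to 37.2%) on chromosome 6. On chromosome X it was 18 of 30 (60.0%, 42.3 to 75.4%), whereas the paired share of its 47 wide 1 dpi regions was 34.0% (22.2 to 48.3%). At 1 dpi the autosomes ranged from 18.6% on chromosome 18 to 42.4% (34.6 to 50.5%) on chromosome 14.

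Pairs wider at 1 dpi were the majority on most chromosomes, which is a description, since the rule used these widths. More pairs were wider at 1 dpi on 20 of 21 chromosomes, and the interval of this share lay above 50% on 11 of them. The exception was chromosome 16, with 14 of 31 pairs wider at 1 dpi (45.2%, 29.2 to 62.2%), an interval that includes 50%. Shares on the other chromosomes ran from 56.9% on chromosome 19 to 68.8% on chromosome 11. The chromosomes come from the same libraries and are not replicates. Over all 17505 overlapping pairs of any width, 46.1% were wider at 1 dpi and 37.0% in sham. Shares by chromosome are not given for these pairs. Depth and injury cannot be told apart on any chromosome.

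**Figure D5:**
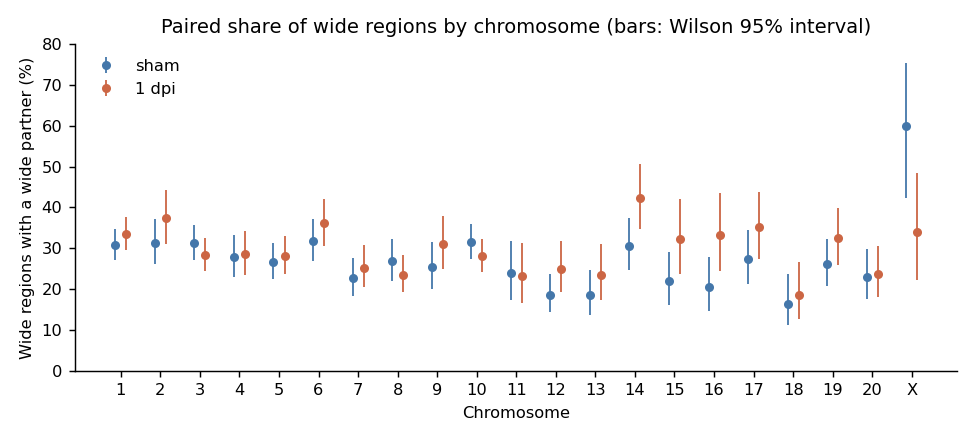
Share of wide regions (%) with a wide partner in the other list, by chromosome, for sham (blue) and 1 dpi (orange), with bars for the Wilson 95% interval of counting error. Autosomal shares lie between 16.4% and 42.4%, and the sham share on chromosome X is 60.0% on only 30 regions.

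On chromosome 10, a 129-kb stretch of closely spaced regions (chr10:83905885-84034434) held more paired groups than any other, 11 in all. The widths in sham ranged from 504 to 1775 bp and those at 1 dpi from 508 to 2692 bp. At 1 dpi 9 of the 11 groups were wider. The largest ratio was that of the last group (chr10:84016753-84018887), with 504 bp in sham and 2135 bp at 1 dpi, which had edges 50 bp apart at the lower end and 1581 bp apart at the upper end. The first group (chr10:83913706-83916230) had 722 bp in sham and 2525 bp at 1 dpi. The groups that were wider in sham measured 1236 against 1015 bp and 555 against 508 bp. A stretch on chromosome 5 (chr5:169277384-169438890) went the other way, with 3 of 7 groups wider at 1 dpi. Its paired regions covered 7.295 kb in sham and 6.365 kb at 1 dpi. Further such stretches had 6 of 8 groups wider at 1 dpi on chromosome 3, and 6 of 7 and 6 of 6 on chromosome 1. Depth and injury cannot be told apart here.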

How the data were processed

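H2AK119ub1 ChIP and input libraries (8 samples) were prepared by the authors after micrococcal nuclease digestion. Per the submitters' processing notes and the study's methods, base calling used CASAVA 1.8.2, reads were mapped with Bowtie to rn5 and regions were called with HOMER. The file headers give findPeaks with variable-length regions, a window of 150 bp, a minimum distance of 370 bp, 4-fold over input and over the surrounding 10000 bp, and limits of 1 (sham) and 3 (1 dpi) tags per bp. Versions of Bowtie and HOMER are not given in the sources used here. The deposited lists hold region starts and ends in bp (starts counted from 0). The deposited score column is 1 throughout and carries no height. Total tags were 19714687 (sham) and 76420053 (1 dpi).

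Overlaps, groups, edges and neighbours were computed in Python 3.11.15 with numpy 2.4.6, pandas 2.3.3 and scipy 1.17.1, and the code was tested on simulated lists with known pairs. Shares have Wilson 95% intervals and medians order-statistic intervals. Closely spaced regions of both lists were merged within 5 kb, and those of at least 10 kb were taken as joint domains. Regions were named by rule: the 5 widest groups, the 4 highest and 4 lowest width ratios and 3 closest edges of one-to-one groups, the 3 first listed, the 3 with most neighbours, the 1 with most regions and the 3 longest runs. The domain on chromosome 10, single groups of runs and the extensions beyond 500 bp were picked after their values were seen. Members, rules and alternatives were chosen with earlier results of these data known. Alternatives were other minimum widths, reciprocal overlap of 50%, equal list lengths, one-to-one pairs, merging within 370 bp and other distances. Genes were not assigned, because no annotation of rn5 was used.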

Additional observations from a re-analysis of the deposited data

How the results depend on the processing

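For 8 results, 49 values were obtained with other settings. Of these, 31 moved beyond the interval or 1.5-fold limit of the reported value and 18 did not, 6 of which used equal list lengths and could not change, as all 1 dpi members stood within that part of the list. The 2 results with a direction, the width ratio and the share wider at 1 dpi, kept it in the alternatives run. The number of paired sham regions was 668 at 750 bp, 352 at 1000 bp and 865 with reciprocal overlap of 50%. Their share of wide sham regions was 23.8% at 400 bp, 37.7% at 750 bp, 45.7% at 1000 bp, 16.2% with reciprocal overlap and 30.1% after merging within 370 bp. The 1 dpi shares were 26.3%, 33.2%, 32.1%, 18.2% and 23.4%. The median log2 width ratio was 0.0879 with reciprocal overlap (58.8% of pairs wider at 1 dpi) and 0.15 in one-to-one pairs, and it was above 0 in every alternative. The median edge distance was 243 bp at 400 bp, 319.5 bp at 750 bp, 359.5 bp at 1000 bp, 124 bp with reciprocal overlap, 196 bp in one-to-one pairs and 346 bp after merging. The share of groups near another was 30.1% at 750 bp, 20.1% at 1000 bp, 25.4% with reciprocal overlap, 28.2% within 2 kb and 45.1% within 10 kb. Neighbours numbered 4 within 2 kb, 15 within 10 kb 5 when single windows were left out, and 8 without members of other groups, an alternative chosen after seeing the data.

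No paired analysis was possible because the libraries of a condition were combined before regions were called, which also prevents leaving out single replicates. The 3.88-fold difference in depth and the other differences in calling coincide with injury and limit every comparison of width.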

Other observations

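Merging both lists within 5 kb gave 5513 joint domains of at least 10 kb, of which 655 (11.9%, 11.1 to 12.8%) contained a paired group. These domains had a median span of 25.5 kb and a median of 24 regions of both lists, against 15.3 kb and 9 regions in the others. In 4 parts of equal number by increasing span, the share with a group was 4.13%, 6.60%, 11.0% and 25.8%, and 54 of the 100 longest had one. A long joint domain therefore often had no pair of wide regions. Of the groups, 1077 (80.7%, 78.5 to 82.7%) were in a joint domain, as were 45.3% of unpartnered wide sham regions and 74.1% of unpartnered wide 1 dpi regions. Over all regions of any width the share was 38.7% in sham and 49.1% at 1 dpi. For wide regions with a narrower partner this share is not given. A joint domain needs a span of at least 10 kb, to which the width and clustering of the groups themselves contribute.

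Within their domains, 661 of the 1077 groups (61.4%, 58.4 to 64.2%) had their centre in the middle 50% of the span. For all regions in joint domains this share was 47.1% in sham and 47.2% at 1 dpi. The groups were chosen for width, which keeps their centres off the domain ends, whereas all regions include those that set the ends. The difference, and the part of this choice in it, was not tested.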
